A study of Mus musculus with 15 samples.

Results

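Interferon-stimulated genes were followed as a set of 35 genes, listed by name, through microdissected colon adenomas and normal colon epithelium of Apc-mutant mice. The genes were chosen by name and known function, with no threshold on measured levels but with earlier results of these data known. Of the 35 genes, 34 had a probe among the 27751 gene features of the array. No probe was matched to Xaf1, a promoter of apoptosis. On all 15 arrays, 27 of the 34 genes were well above background. Irf9, Dhx58 and Gbp3 appear in the array files under the older names Isgf3g, D11Lgp2e and Gbp4 and were matched through RefSeq.

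Interferons are secreted proteins that alert cells to viruses and other threats. Type I and type III interferons activate receptor-bound JAK kinases, which lead to the assembly of a transcription factor complex that holds STAT2 and IRF9, while interferon gamma acts through a receptor of its own. Both routes switch on a shared battery of genes for RNA sensors, antiviral enzymes, GTPases and further transcription factors, and the colon epithelium keeps part of this battery on at rest.

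The complex that holds STAT2 and IRF9 binds a short element in promoters, and many members hold its letters. In the RefSeq table of promoters on GRCm38.p6, which spans 250 bases before to 50 bases after each start, 26 of the 35 members were listed. The core of the element, searched on both strands as GAAA, any 2 bases and GAAA again, lay in the window of 15 of these 26 genes (57.7%) and in that of 3.99% of all 27025 genes. The following 100-base stretches upstream of the start, written 5′ to 3′ on the gene's strand with the matches of this pattern in capitals (as TTTC repeats where the match is on the other strand), show how these letters recur in genes whose levels are reported here. They lie at chr4:156200836-156200935 (Isg15, minus strand), chr19:34640749-34640848 (Ifit1, plus strand), chr19:34583345-34583444 (Ifit3, plus strand), chr5:120907526-120907625 (Oas1a, minus strand) and chr3:142620559-142620658 (Gbp2, plus strand).
Isg15: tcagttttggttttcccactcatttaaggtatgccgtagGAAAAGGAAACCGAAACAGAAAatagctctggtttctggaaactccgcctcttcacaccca
Ifit1: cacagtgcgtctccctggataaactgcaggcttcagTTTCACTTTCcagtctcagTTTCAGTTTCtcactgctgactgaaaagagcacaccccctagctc
Ifit3: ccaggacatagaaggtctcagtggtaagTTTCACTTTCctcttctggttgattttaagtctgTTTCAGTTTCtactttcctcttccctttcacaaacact
Oas1a: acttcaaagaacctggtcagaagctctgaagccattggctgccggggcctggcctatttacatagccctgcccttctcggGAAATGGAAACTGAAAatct
Gbp2: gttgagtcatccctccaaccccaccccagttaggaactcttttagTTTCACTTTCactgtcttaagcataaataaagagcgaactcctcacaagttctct
Isg15 held 3 matches that overlap one another, Ifit1, Ifit3 and Oas1a held 2 each and Gbp2 held 1. The listed windows of Ifit2 and Oasl1 held no match of these letters. Each level reported here is the brightness of one 60-base probe, such as that of Oas1a, which the array design places at chr5:120132325-120132384 on its build, mm7.
Oas1a probe: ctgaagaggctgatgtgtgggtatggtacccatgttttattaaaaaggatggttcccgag

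All mice were male Apc+/Min-FCCC animals on a C57BL/6J background, heterozygous for a mutation in Apc, a tumor suppressor gene, and prone to colon adenomas. They were divided into tumor-bearing and tumor-free animals by colonoscopy when 6 to 8 weeks old, and diets were given for 7 days. Cells were collected by laser microdissection, and the RNA was linearly amplified before hybridisation to single-colour Agilent arrays. Untreated adenomas (3 arrays) came from tumor-bearing mice on plain chow. Treated adenomas (4 arrays) came from tumor-bearing mice given sulindac at 300 ppm, an inhibitor of cyclooxygenases, together with atorvastatin at 100 ppm, an inhibitor of cholesterol synthesis. Tumor-free epithelium (4 arrays) and tumor-bearing epithelium (4 arrays) were normal epithelium of tumor-free and of tumor-bearing mice, both labelled as given atorvastatin at 100 ppm alone. The series' design text names no group of tumor-bearing mice on atorvastatin alone, and the sample labels were followed. No untreated epithelium was analysed here, so an adenoma against an epithelium differs in drug as well as in tissue. The labels do not say whether arrays of a group came from separate mice, so p-values measure the spread between these samples.

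Levels are log2 intensities relative to the 75th percentile of each array, so 0 is that percentile and a difference of 1 is a change of 2-fold. The share of probes well above background ranged from 56.5% to 75.5% over the arrays. In 6 pairs of arrays of the same group the log2 difference had an SD of 0.09 to 0.17, below the spot noise of 0.19 to 0.22, while the other 15 such pairs had SDs of 0.59 to 1.12. The near-identical arrays were averaged, which left 10 samples from 15 arrays. These were untreated adenoma 1+2 and 3, treated adenoma 1 and 2+3+4, tumor-free epithelium 1, 2 and 3+4, and tumor-bearing epithelium 1+3, 2 and 4. Tumor-free array 2 and tumor-bearing array 2, of different groups, were also nearly alike, with an SD of 0.18 at a spot noise of 0.18, whereas tumor-free array 2 and tumor-bearing array 3 differed with an SD of 0.62. They were kept under their labels, and results that changed without them are given both ways.

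In every group but the untreated adenomas, the members varied more between samples than the median feature did. Among the 27 members above background on every array, the median spread between the highest and lowest sample was 1.58 in treated adenomas, where it was 0.604 over all 13194 features above background on every array. It was 1.98 against 0.945 in tumor-free epithelium and 2.47 against 0.986 in tumor-bearing epithelium. In untreated adenomas it was 0.451 against 0.492. The spread covers 2 samples in each adenoma group and 3 in each epithelium group, so it is set against all features of the same group and not between tissues.

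**Figure D1:**
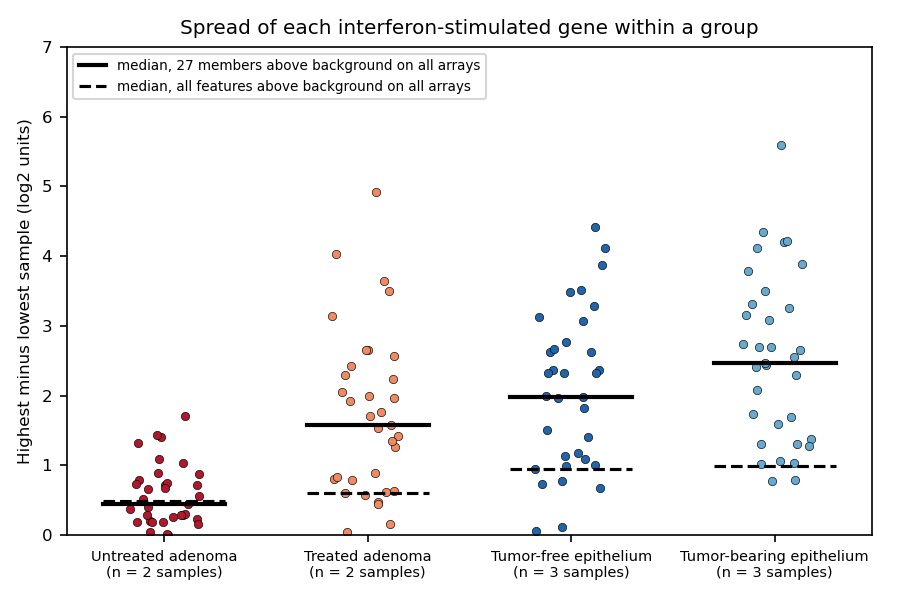
Each point is 1 of 34 interferon-stimulated genes, and its height is the highest minus the lowest sample of the group in log2 units; solid lines mark the median of the 27 members above background on all arrays and dashed lines that of all features above background on all arrays. The solid line lies near the dashed one in untreated adenomas (0.451 and 0.492) and above it in the other groups.

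The members moved together across these samples. Treated adenoma 2+3+4 was above treated adenoma 1 for 24 of the 27 members, and for 57.5% of all features. Tumor-free epithelium 3+4 was the lowest of its 3 samples for 24 of 27 members (45.9% of all features), and tumor-free epithelium 2 was the highest for 20 (45.1% of all features). Tumor-bearing epithelium 4 was the lowest of its group for 21 of 27 members (57.7% of all features) and tumor-bearing epithelium 2 the highest for 20 (29.5% of all features). Taking each member's deviation from its own mean over the 10 samples, the median over the 34 members was -0.99 and -1.08 in the untreated adenomas, -0.92 and 0.50 in treated adenoma 1 and 2+3+4, 0.82, 1.37 and -0.37 in tumor-free epithelium 1, 2 and 3+4, and 0.59, 1.42 and -0.67 in tumor-bearing epithelium 1+3, 2 and 4. By this measure the groups overlap: treated adenoma 2+3+4 lay above the lowest sample of either epithelium.

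**Figure D2:**
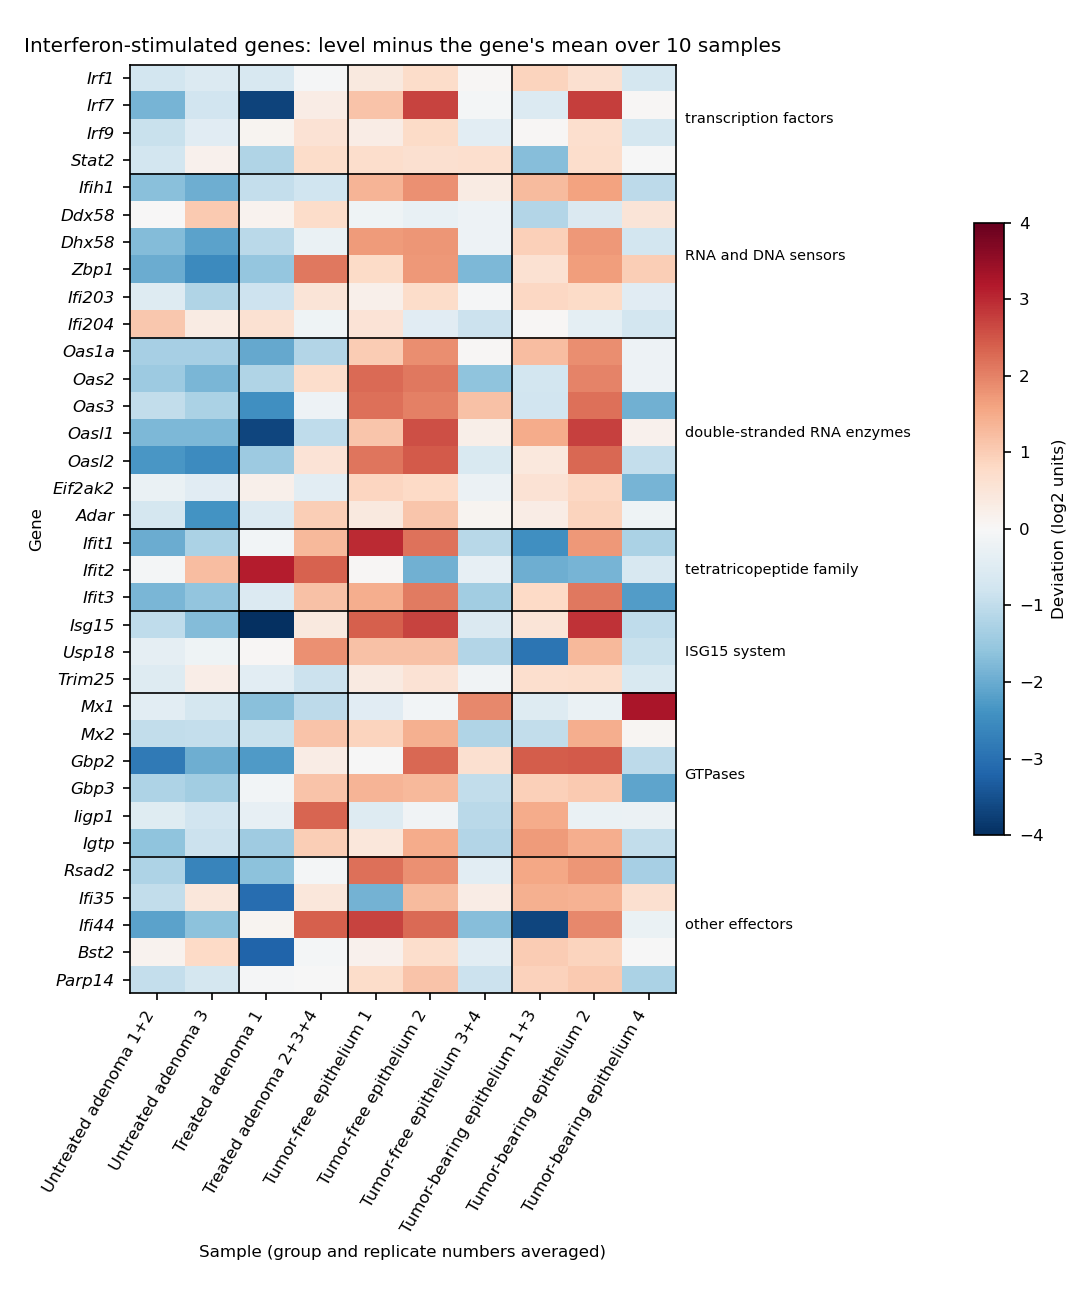
Rows are the 34 measured interferon-stimulated genes by role, columns are the 10 samples, and colour is the level minus the gene's mean over the samples in log2 units, red above and blue below. Untreated adenomas and treated adenoma 1 are mostly blue (median deviations -0.99, -1.08 and -0.92), and tumor-free and tumor-bearing epithelium 2 mostly red (1.37 and 1.42).

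Markers of other cells varied over the same samples, as sums of linear levels relative to the 75th percentile. The 7 pan-leukocyte markers summed to 8.80 in tumor-free epithelium 3+4 and to 15.8 and 22.9 in the other samples of that group. They summed to 14.4 in tumor-bearing epithelium 4 against 29.8 and 22.6, and to 15.5 in treated adenoma 1 against 27.4 in treated adenoma 2+3+4. The 10 epithelial markers ran the same way, with sums of 648 against 793 and 822, of 533 against 919 and 846, and of 426 against 618. Macrophage, dendritic cell, neutrophil, T and NK cell and smooth muscle sums were also lowest in these samples of their groups. For neutrophils in tumor-bearing epithelium this was by little, at 0.101 against 0.104 and 0.541. Of the 7 neutrophil markers, 3 were well above background on no tumor-free array and 4 on no tumor-bearing array. The order of the neutrophil sums in epithelium therefore rests in part on signals not well above background. Macrophage sums were 36.4 against 45.3 and 62.6, 41.3 against 93.4 and 65, and 65.1 against 115. The fibroblast, endothelial, B and plasma cell and plasmacytoid dendritic cell lists ran this way in only some groups. Fibroblast sums were 135 in tumor-free epithelium 3+4 against 130 and 121. Endothelial sums were 4.51 in treated adenoma 1 against 4.05 in treated adenoma 2+3+4. B and plasma cell sums were 26.9 in tumor-free epithelium 3+4 against 37.5 and 24.9. They were 34.3 in tumor-bearing epithelium 4 against 52.3 and 26.6. The part of these cells in the spread of the members was not tested.

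The comparison of both adenoma groups with both epithelium groups asked where the tissues differed. Ifit2 was higher in adenomas, and Oasl1, Oas1a, Ifih1, Dhx58 and Gbp2 were lower. These 6 of 34 members (17.6%) passed an adjusted p of 0.05 by limma, where 21.8% of all 18913 features tested passed. The 5 lower members (14.7%) compare with 12.6% of all features lower, and the 1 higher member with 9.14% higher, so the share called was near that of genes at large. The median difference over the members was -1.04 on the log2 scale against -0.17 over all features. Of the 34 members 29 lay below 0, against 56.6% of all features. In bulk samples, fewer cells of a type and less RNA per cell cannot be told apart.

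Among the enzymes that bind double-stranded RNA, all 7 differences lay below 0 with a median of -2.04, and 2 of the 7 passed. That median is the difference of Oas3, which was not well above background on every array. Oasl1, an oligoadenylate synthetase-like protein that restrains IRF7 translation, was measured at chr5:114158380-114158439 (mm7). Its levels were -2.19 and -2.20 in untreated adenomas, -4.06 and -1.40 in treated adenomas, 0.73, 2.19 and -0.17 in tumor-free epithelium and 1.09, 2.34 and -0.22 in tumor-bearing epithelium. Every adenoma sample was below every epithelium sample. Oasl1 was 10.96-fold lower in adenomas, a log2 difference of -3.45 ± 0.68 (SE, 4 against 6 samples; limma adjusted p = 0.0060).

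Oas1a makes the 2′-5′ oligoadenylates that activate RNase L, which degrades RNA in infected cells. Its levels were 1.26 and 1.26 in untreated adenomas, 0.53 and 1.42 in treated adenomas, 3.60, 4.45 and 2.63 in tumor-free epithelium and 3.82, 4.45 and 2.37 in tumor-bearing epithelium. Adenomas and epithelium again did not overlap. Oas1a was 5.41-fold lower in adenomas, by -2.43 ± 0.49 on the log2 scale (limma adjusted p = 0.0068). Oas1a belongs to a family of closely similar genes on chromosome 5, and whether its probe also bound their transcripts was not tested. Of the others, Oasl2, a relative of Oasl1, differed by -2.41 ± 0.78 (adjusted p = 0.053) and Oas3 by -2.04 ± 0.76 (adjusted p = 0.081), neither past the threshold. Oas3 was tested through the tumor-free arrays, and was well above background on 4 of 7 adenoma and 5 of 8 epithelium arrays. The size of the Oas3 difference therefore rests in part on signals not well above background. Eif2ak2, the kinase PKR that halts translation, differed by -0.40 ± 0.54, and Adar, which edits adenosine in double-stranded RNA, by -1.10 ± 0.47.

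Ifit2, which binds viral RNA and restrains translation, was the member with the highest absolute moderated t in this comparison and the only one that was called higher. Its levels were -4.94 and -3.62 in untreated adenomas, -1.70 and -2.50 in treated adenomas, -4.79, -6.78 and -5.17 in tumor-free epithelium and -6.80, -6.70 and -5.50 in tumor-bearing epithelium. Untreated adenoma 1+2 fell just below tumor-free epithelium 1, so the tissues overlapped at that point, and both treated samples lay above all others. Ifit2 was higher in adenomas, with a fitted log2 difference of 2.76 ± 0.50 (limma adjusted p = 0.0037). It was well above background on 7 of 7 adenoma arrays but on only 3 of 8 epithelium arrays, all 3 of them tumor-free, so it was tested through the adenoma arrays and the size of the difference rests in part on signals not well above background. Of its neighbours in the gene cluster on chromosome 19, Ifit1, which recognises RNA without the host cap, differed by -0.86 ± 0.95 and Ifit3, its partner, by -1.16 ± 0.91, neither past the threshold.

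The sensors of viral RNA included 2 of the lower members. Ifih1, the sensor MDA5 of long double-stranded RNA, had levels of 0.94 and 0.66 in untreated adenomas, 1.66 and 1.82 in treated adenomas, 3.95, 4.43 and 2.92 in tumor-free epithelium and 3.86, 4.22 and 1.57 in tumor-bearing epithelium. Tumor-bearing epithelium 4 lay between the untreated and the treated adenomas, and the other epithelium samples lay above all adenomas. Ifih1 was 4.66-fold lower in adenomas, by -2.22 ± 0.54 on the log2 scale (limma adjusted p = 0.016).

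Dhx58, the related helicase LGP2 that tunes MDA5, had levels of -0.56 and -0.95 in untreated adenomas, 0.10 and 0.93 in treated adenomas, 2.90, 2.96 and 1.00 in tumor-free epithelium and 2.15, 2.93 and 0.46 in tumor-bearing epithelium. Only tumor-bearing epithelium 4 fell within the adenoma range. Dhx58 was 4.56-fold lower in adenomas, by -2.19 ± 0.56 (limma adjusted p = 0.022). The third helicase of this family, Ddx58 or RIG-I, differed by 0.82 ± 0.39 and did not pass, and a second Ddx58 probe, well above background on 10 arrays, gave 2.27. The DNA sensors Zbp1 (-1.67 ± 0.81), Ifi203 (-0.85 ± 0.41) and Ifi204 (0.77 ± 0.38) did not pass either, and a second probe of Ifi203 gave 0.52, opposite in sign to the probe used.

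Among the interferon-induced GTPases, which attack the membranes around intracellular microbes or block viral replication, 1 of 6 passed. Gbp2, a guanylate-binding protein, had levels of -2.36 and -1.48 in untreated adenomas, -1.79 and 0.78 in treated adenomas, 0.46, 2.78 and 1.11 in tumor-free epithelium and 2.91, 2.91 and -0.59 in tumor-bearing epithelium. The tissues overlapped, since treated adenoma 2+3+4 lay above tumor-free epithelium 1 and tumor-bearing epithelium 4. Gbp2 was 7.01-fold lower in adenomas, by -2.81 ± 0.83 (limma adjusted p = 0.037). Gbp3 (-0.66 ± 0.72), Igtp (-1.21 ± 0.73), Iigp1 (0.33 ± 0.56), Mx2 (-0.71 ± 0.66) and Mx1 (-1.61 ± 0.76) did not pass. Mx1, which is defective in most inbred mouse strains, was well above background on 5 of 7 adenoma and 6 of 8 epithelium arrays.

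**Figure D3:**
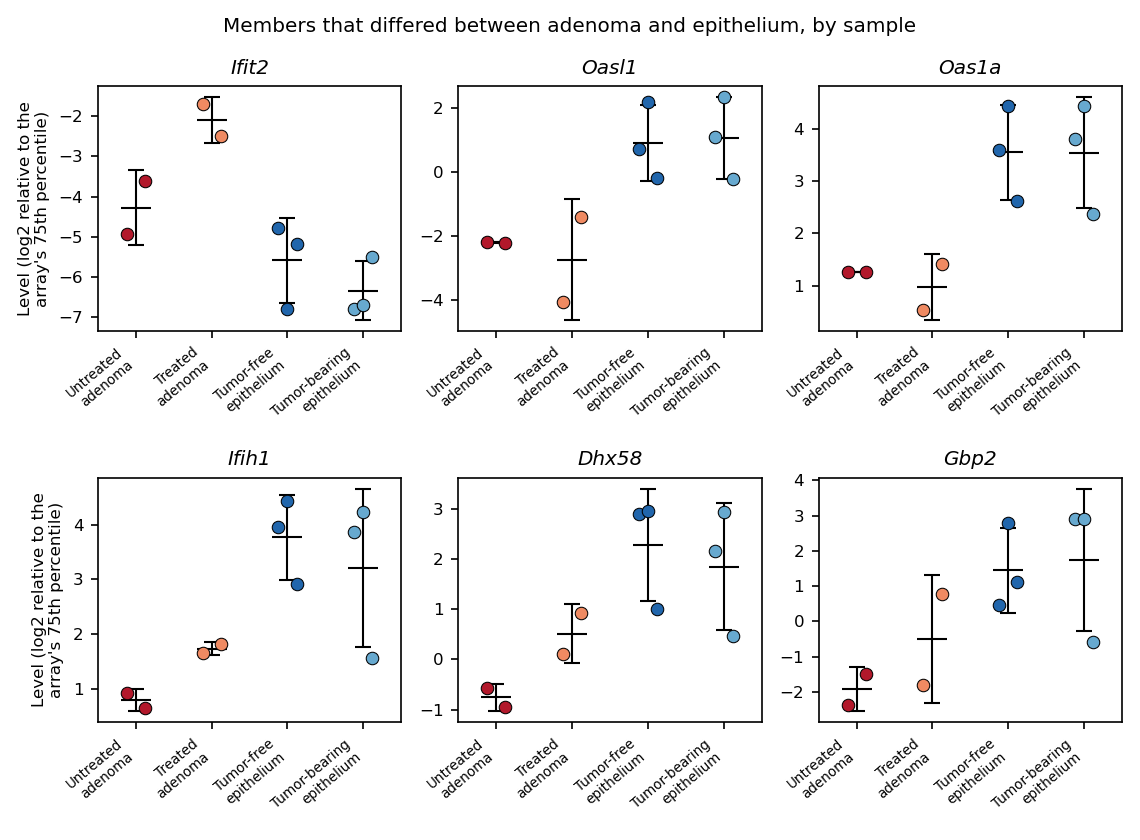
Each panel shows 1 of the 6 members that passed the test of adenoma against epithelium; points are samples (2 per adenoma group, 3 per epithelium group), the horizontal bar is the group mean, whiskers are 1 SD and the vertical axis is the log2 level relative to the array's 75th percentile. Ifit2 lies higher in adenomas and the others lie lower, and only for Oasl1 and Oas1a are all adenoma samples apart from all epithelium samples.

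No transcription factor of the set passed. Irf7, the amplifier of the type I response, differed by -2.52 ± 0.92 (limma adjusted p = 0.078), Irf1, induced chiefly by interferon gamma, by -0.83 ± 0.37, Irf9 by -0.27 ± 0.38 and Stat2 by -0.43 ± 0.54, all 4 below 0. The Irf7 value of -7.33 in treated adenoma 1 lies below the lowest signal well above background on that array (-6.37). The size of the Irf7 difference therefore rests in part on a signal not well above background. In the ISG15 system, Isg15, a ubiquitin-like protein attached to other proteins, had levels of -0.60 and -1.32 in untreated adenomas, -4.10 and 0.82 in treated adenomas, 2.83, 3.13 and -0.15 in tumor-free epithelium and 0.94, 3.32 and -0.58 in tumor-bearing epithelium. The spread of 4.92 between the treated adenoma samples was the widest of any member in that group. The difference of -2.88 ± 1.09 did not pass (limma adjusted p = 0.086). Usp18, which removes Isg15, differed by 0.56 ± 0.81 and Trim25, a ubiquitin ligase that activates RIG-I, by -0.64 ± 0.37. The array design places the Isg15 probe on chromosome 17 of mm7, whereas RefSeq has Isg15 on chromosome 4 of GRCm38.p6.

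The 5 other measured effectors all lay below 0 and none passed. Rsad2, or viperin, which makes an antiviral nucleotide, differed by -2.33 ± 0.76 (limma adjusted p = 0.054), and by -0.87 on a second probe well above background on 10 arrays. Bst2, or tetherin, which holds budding virions at the cell surface, differed by -0.98 ± 0.58, Parp14, an ADP-ribosyltransferase, by -0.72 ± 0.54, Ifi35 by -1.30 ± 0.77 and Ifi44 by -0.53 ± 1.16. A second probe of Ifi44 gave 0.17, opposite in sign. At an unadjusted p under 0.05, 12 of the 34 members passed, where 36.7% of all features did.

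**Figure D4:**
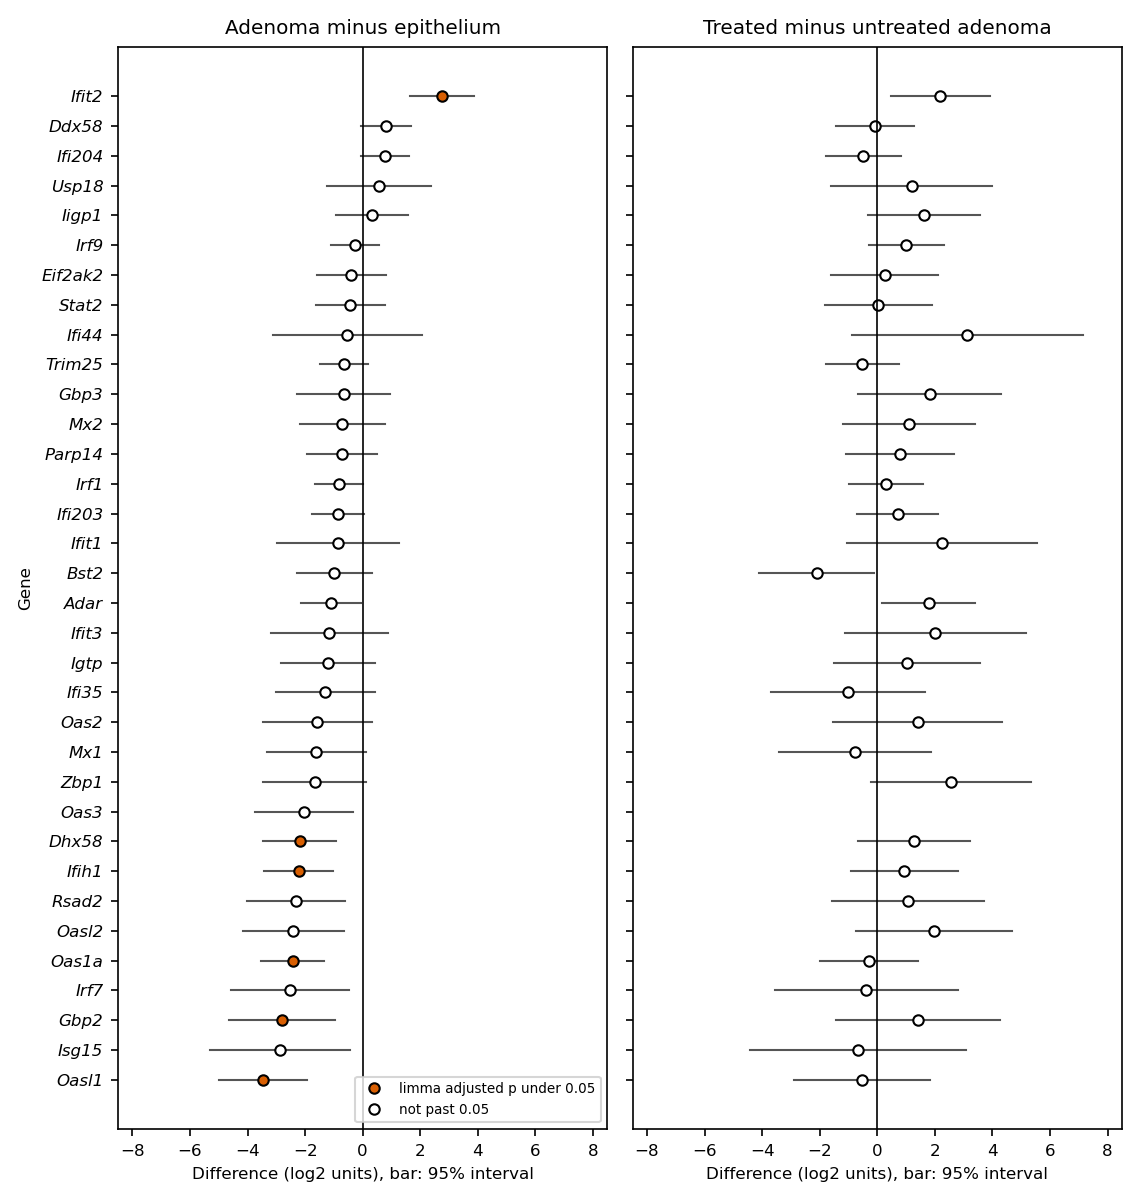
Points are the log2 differences of the members in the fit and bars their 95% intervals, for both adenoma groups minus both epithelium groups (left, 34 members) and for treated minus untreated adenomas (right, 33 members); filled points passed a limma adjusted p of 0.05. On the left Ifit2 (2.76) stands above 0 and Oasl1, Gbp2, Oas1a, Ifih1 and Dhx58 below, and on the right no point is filled.

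The 6 calls did not stand equally firm. Ifit2, Oasl1 and Oas1a passed under every alternative that was run for them. The filter for signal well above background on both sides left Ifit2 out, so Ifit2 was not tested under it. Without the near-identical tumor-free and tumor-bearing arrays 2, 3 members passed, and Ifih1 (-1.80, limma adjusted p = 0.067), Dhx58 (-1.75, adjusted p = 0.084) and Gbp2 (-2.19, adjusted p = 0.13) did not. Likewise 3 passed without untreated adenoma 1+2, without untreated adenoma 3 or without treated adenoma 1, whereas 10 passed without treated adenoma 2+3+4 and 12 without tumor-bearing epithelium 4. Without tumor-free epithelium 2, Dhx58 (limma adjusted p = 0.0502) and Gbp2 (adjusted p = 0.078) did not pass. Gbp2 also failed without tumor-free epithelium 3+4 (limma adjusted p = 0.058), tumor-bearing epithelium 1+3 (adjusted p = 0.074) or tumor-bearing epithelium 2 (adjusted p = 0.073). Scans were made on 6 dates. Within the first 2 dates that held both tissues, the members' median was -1.55 and -1.58, but on the third, which held treated adenoma array 2 and tumor-bearing array 4, it was 1.13. On that date Ifit2 (2.95), Oas1a (-1.02) and Oasl1 (-1.26) kept their sign, while Dhx58 (0.45), Gbp2 (1.30) and Ifih1 (0.31) lay above 0.

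Untreated adenomas and treated adenomas were each set against tumor-bearing epithelium, and both comparisons share those 3 samples. In untreated adenomas no member passed of 32 tested, where 12% of 17403 features passed, 5.32% higher and 6.65% lower. The 4 members with the highest absolute moderated t were Oasl1 (-3.26 ± 0.96, limma adjusted p = 0.055), Oas1a (-2.28 ± 0.69, adjusted p = 0.061), Dhx58 (-2.61 ± 0.79, adjusted p = 0.061) and Ifih1 (-2.41 ± 0.76, adjusted p = 0.067). Of the 32, 27 lay below 0, against 54.5% of all features, with a median of -1.35 against -0.13 over all features. An unadjusted p under 0.05 was reached by 10 members, and by 28.9% of all features. Without tumor-bearing epithelium 4, the lowest sample of that group for most members, 9 members passed. Without treated adenoma 1 or treated adenoma 2+3+4, which enter only through the shared spread, 2 passed in each case, and 1 passed without tumor-free epithelium 2 or 3+4. Within the 2 scan dates that held both groups the median was -1.78 and -1.58.

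In treated adenomas 3 of 32 members passed, 1 higher and 2 lower, where 13.6% of 17003 features passed, 6.6% higher and 7.04% lower. At an unadjusted p under 0.05, 5 members did, against 30.3% of all features. Ifit2 was higher than in tumor-bearing epithelium, by 4.23 ± 0.70 (limma adjusted p = 0.0038). Since Ifit2 was not well above background on any of the 4 tumor-bearing arrays, its level there is only a bound, and it was at least 11.6-fold higher in treated adenomas. The bound sets the mean of the treated samples against, on each tumor-bearing array, the higher of its own signal and the lowest signal well above background. In untreated adenomas the same bound gave at least 2.56-fold higher, with a fit that did not pass (limma adjusted p = 0.088).

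Oasl1 (-3.80 ± 0.96, limma adjusted p = 0.028) and Oas1a (-2.57 ± 0.69, adjusted p = 0.036) were lower in treated adenomas, and Bst2 followed without passing (-2.27 ± 0.81, adjusted p = 0.094). The calls on Oasl1 and Oas1a rested on few samples: 1 member passed without the near-identical arrays 2, without treated adenoma 1, without tumor-bearing epithelium 1+3 or without tumor-bearing epithelium 2, and 5 passed without tumor-bearing epithelium 4. Oas1a alone also failed without either untreated sample (limma adjusted p = 0.058 each) or without treated adenoma 2+3+4 (adjusted p = 0.082). The median of the 32 members was -0.57 against -0.08 over all features, and 12 lay above 0, against 47.4% of all features. That median was -1.0 without treated adenoma 2+3+4 and 0.16 without treated adenoma 1, so its sign depended on which treated sample was used. Within scan dates it was -1.44 on the date of treated adenoma 1 and 1.13 on that of treated adenoma array 2.

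The treatment comparison asked whether a week of both drugs altered adenomas. Of 33 members tested between treated and untreated adenomas, none passed, where 0.221% of 17629 features passed, 0.119% of all features higher and 0.102% lower. At an unadjusted p under 0.05, 3 members did, as did 12% of all features. Most members lay above 0 (23 of 33, against 52.3% of all features), with a median of 1.01 against 0.05. All 3 tetratricopeptide genes and 5 of 6 GTPases had positive differences, and none of these passed. So did 3 of 4 transcription factors, 4 of 6 sensors, 4 of 6 double-stranded RNA enzymes and 3 of 5 other effectors. The ISG15 system ran the other way, with 1 of 3 above 0 and a median of -0.52.

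The 4 members with the highest absolute moderated t were Ifit2, Adar, Bst2 and Zbp1. Ifit2 stood at -1.70 and -2.50 in treated against -4.94 and -3.62 in untreated adenomas, a difference of 2.18 with a 95% interval of 0.46 to 3.91 (limma adjusted p = 0.32). Adar stood at 0.89 and 2.43 against 0.74 and -0.97, a difference of 1.78 (0.17 to 3.38, adjusted p = 0.37). In both genes the treated samples lay above the untreated ones by the probe used, but a second Adar probe, well above background on all 15 arrays, gave a difference of 0.02.

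Bst2 stood at -1.44 and 1.71 in treated against 1.91 and 2.57 in untreated adenomas, a difference of -2.10 (95% interval -4.10 to -0.11, limma adjusted p = 0.40), most of it from treated adenoma 1. Zbp1, which senses nucleic acids and can trigger necroptosis, stood at -0.81 and 2.83 against -1.27 and -1.83, a difference of 2.56 (-0.23 to 5.34, adjusted p = 0.46). Its high value came from treated adenoma 2+3+4. Of the members called lower in adenomas than in epithelium, Oas1a differed by -0.29 (-1.99 to 1.42) and Oasl1 by -0.53 (-2.90 to 1.83) between treated and untreated adenomas, and these intervals hold changes of several fold in either direction.

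The size of the treatment difference depended on the treated sample. The median of the members was 1.69 without treated adenoma 1 and 0.27 without treated adenoma 2+3+4. Within scan dates it was 0.18 on the date that held treated adenoma 1 and 1.75 on the date that held treated arrays 3 and 4. Counted as 15 separate samples, the near-identical arrays included, 5 members passed, all higher in treated adenomas, and 9 did with the replicate number as a block.

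The remaining comparison set normal epithelium of tumor-bearing mice against that of tumor-free mice, both on atorvastatin. None of 33 members passed by limma, nor did any of the 17648 features (0%). At an unadjusted p under 0.05 no member passed and 2.84% of all features did. Of the 33 members 24 lay below 0 with a median of -0.19, while 51.2% of all features lay above 0. The median was 0.25 without tumor-bearing epithelium 4, 0.07 without tumor-free epithelium 2 and -0.70 without tumor-free epithelium 3+4, so its sign rested on single samples. No scan date held arrays of both groups.

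The 4 members with the highest absolute moderated t were Oas3, Ifit1, Stat2 and Ifi35. Oas3 stood at -5.73, -2.79 and -6.90 in tumor-bearing and -2.78, -2.96 and -3.80 in tumor-free epithelium, a fitted difference of -1.96 with a 95% interval of -4.06 to 0.14. Oas3 was well above background on 4 of 4 tumor-free but on 1 of 4 tumor-bearing arrays, so the size of that difference and the place of Oas3 among these 4 rest in part on signals not well above background. Ifit1 stood at -3.35, 0.85 and -2.14 against 2.11, 1.29 and -2.00, a difference of -2.02 (-4.66 to 0.63). Stat2 differed by -1.01 (-2.50 to 0.49) and Ifi35 by 1.26 (-0.89 to 3.40), and the limma adjusted p was 0.99 for each of the 4. For every one of these genes the groups overlapped, and the near-identical arrays 2 had nearly equal values, such as -2.96 and -2.79 for Oas3.

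The other genes of the pathway were 79 measured genes from lists of ligands, receptors, signal relays, upstream sensors and further interferon-induced genes, of which 71 were tested between adenoma and epithelium. Of these, 6 were higher and 12 lower in adenomas, where 9.14% and 12.6% of all features were, and the median was -0.33 against -0.17 over all features. Among 8 ligands tested, Ifng, or interferon gamma, was higher (2.06 ± 0.55, limma adjusted p = 0.025) and Ifna1, of the type I family, lower (-0.97 ± 0.30, adjusted p = 0.045), although type I genes are near-identical copies whose probes may bind each other's transcripts. Both were named after their values were seen. Ifng stood at -4.61 and -2.87 in untreated adenomas, -4.49 and -3.00 in treated adenomas, -5.21, -4.85 and -5.83 in tumor-free epithelium and -6.35, -5.15 and -7.42 in tumor-bearing epithelium, so adenomas lay above epithelium in every sample. The values of -6.35 and -7.42 lie below the lowest signals well above background on their arrays (-4.92 and -5.58, and -5.16), so the size of the Ifng difference rests in part on signals not above background. Of 6 receptors Ifnar2, a subunit of the type I receptor, was higher (1.19 ± 0.28, adjusted p = 0.015), also named after its value was seen.

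Signal relays and sensors gave 1 call upward and 5 downward. Socs3, which restrains JAK signalling, was higher in adenomas (2.10 ± 0.43, limma adjusted p = 0.0068), and Ticam1, the adaptor TRIF of Toll-like receptor 3, was lower (-1.48 ± 0.31, adjusted p = 0.0080). Jak1, a kinase bound to interferon receptors, differed by -0.32 ± 0.31 and did not pass. Of 31 further interferon-induced genes, 3 were higher and 6 lower. The strongest were Ifi27l2a (-3.06 ± 0.48, adjusted p = 0.0015), Ifi27 (-2.02 ± 0.41, adjusted p = 0.0066) and Parp12 (-1.62 ± 0.37, adjusted p = 0.012) among the lower genes, and Ifitm1, a membrane protein that hinders viral entry (2.65 ± 0.42, adjusted p = 0.0019), among the higher.

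Against tumor-bearing epithelium alone, untreated adenomas had 1 higher gene of 69 tested in the wider pathway, Ifitm1 (2.60 ± 0.59), and 2 lower ones, Ifi27 (-2.62 ± 0.57) and Ifi27l2a (-3.43 ± 0.67), where 5.32% of all features were higher and 6.65% lower. Treated adenomas had 3 higher and 6 lower of 70 tested, where 6.6% and 7.04% of all features were, led by Ifi30, a lysosomal thiol reductase (-2.68 ± 0.59, limma adjusted p = 0.015). Next came Ticam1 (-1.77 ± 0.43), the transcription factor Irf8 (-1.99 ± 0.49), the exonuclease Isg20 (-2.10 ± 0.55), Ifi27l2a (-2.49 ± 0.67) and, higher, Ifitm2 (2.12 ± 0.59). Between treated and untreated adenomas none of 70 passed, with 44 above 0 and a median of 0.36. Among the 31 further interferon-induced genes 24 lay above 0 with a median of 0.67. Of all features 52.3% lay above 0, with a median of 0.05. Between the epithelia none of 71 passed.

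Markers of several cell types differed between tissues, where 9.14% of all features were higher and 12.6% lower in adenomas. Fewer cells of a type and less RNA per cell cannot be told apart by these markers. All 10 epithelial markers were well above background on every array, with summed levels of 426 to 618 in adenomas and 533 to 919 in epithelium, and 3 of the 10 (Krt20, Krt19 and Vil1) were lower in adenomas. Of 6 neutrophil markers tested, 5 were higher in adenomas, with sums of 15.9 to 46.7 against 0.101 to 0.541, and S100a8, Cxcr2, Mmp8 and Elane were above background on no tumor-bearing epithelium array. Of 6 B and plasma cell markers 4 were lower in adenomas (sums of 1.10 to 1.94 against 24.9 to 52.3), and so were 4 of 6 smooth muscle markers. The pan-leukocyte sums overlapped, at 15.5 to 27.4 in adenomas and 8.80 to 29.8 in epithelium, with 1 of 7 markers higher. Of 4 plasmacytoid dendritic cell markers tested, 3 were higher and 1 lower in adenomas. The summed level of the list was 24.3 to 52 in adenomas and 71 to 109 in epithelium. A sum of linear levels is carried by its brightest markers. This sum ran opposite to the 3 higher markers, so it does not give the direction of the list. Siglech, also on that list, was not tested. It was well above background on no adenoma or tumor-bearing epithelium array, so the list rests on its other markers. The part of these cells in the differences of Ifit2, Oasl1, Oas1a and the other members was not tested.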

How the data were processed

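RNA levels were read from 15 Agilent arrays (1 colour) with Agilent Feature Extraction 9.5.3, per the submitters' processing notes. The deposited scanner files hold a processed intensity for each spot, background-subtracted within the array per the file headers. The authors' deposited value table holds log2 values whose sorted values differ by at most 0.0021 between columns. It served as an alternative, since 11 columns were closest to their own scanner file and the 4 of tumor-bearing epithelium matched that group's files in reverse order.

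Control spots (1639 of 45018) and outlier-flagged spots were left out. Probes were named through RefSeq tables (GRCm38.p6), which matched 32719 of 41174 probes, and the brightest of several probes of a gene was used (17 members had several). Arrays of a group that differed by less than the spot noise were averaged. All 4 groups were fitted together with limma 3.58.1 (R 4.3.3; 6 residual degrees of freedom, two-sided, Benjamini-Hochberg over all features tested, threshold 0.05), and a feature was tested where all arrays of 1 or more groups compared had it well above background. The fit was tested on simulated data. Named genes were the members called and, where fewer than 4 were, the 4 with the highest absolute moderated t, plus at most 6 called genes of the wider pathway. The members and lists were chosen with earlier results of these data known. Same-numbered arrays of different groups had correlations of their deviations from -0.30 to 0.52. That range does not settle whether the replicate numbers pair samples, and the main fit did not pair them. Alternatives covered background correction, scaling, filters, probe choice, blocks for scan date, slide and replicate number, and leaving out samples.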

Additional observations from a re-analysis of the deposited data

How the results depend on the processing

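Medians of the members kept their sign in every alternative run for both tissues (-1.53 to -0.69), for untreated adenomas against tumor-bearing epithelium (-1.74 to -1.08) and for the drugs (0.27 to 1.69); for treated adenomas against tumor-bearing epithelium (-1.0 to 0.16) and for the epithelia (-0.70 to 0.25) they did not. Quantile normalization moved the median of all features between tissues from -0.17 to -0.03 and that of the members from -1.04 to -0.91.

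Members called depended most on how near-identical arrays were counted. With each array its own sample, 5 passed between treated and untreated adenomas, 14 in untreated adenomas against tumor-bearing epithelium, 8 in treated adenomas and 14 between tissues (main values 0, 0, 3 and 6). With the replicate block, a paired fit on separate arrays, these were 9, 17, 7 and 15, with slide as a random block 5, 14, 6 and 14, and with scan date as a fixed block 5 and 14 in the first 2. With near-identical arrays as a random block, 10 passed in untreated adenomas and 13 between tissues. In untreated adenomas 3 passed with normexp background or the authors' table, 1 with quantile normalization or with a filter on both sides, and 2 when only the groups compared were fitted; in treated adenomas the last setting gave 1. Without the near-identical arrays 2, 1 passed in treated adenomas and 3 between tissues. Leaving out each sample gave 0 to 9 in untreated adenomas, 1 to 5 in treated adenomas and 3 to 12 between tissues. The epithelia gave 0 throughout and the adenomas 0 in the alternatives not named. No scan date fit was run for the epithelia or between tissues, where tumor-free arrays share no date with another group. With 2 or 3 samples a group, small differences were not detectable.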
